A study of Mus musculus with 20 samples.

Results

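The 10 genes described here carry iron into, through and out of cells or store it, out of 54304 genes in the table. They are the exporter Slc40a1, the copper-containing iron oxidases Cp and Heph, the plasma carrier Trf and its receptor Tfrc, the importers Slc11a2 and Slc39a14, the metal reductase Steap4, and the ferritin subunits Fth1 and Ftl1. Each was found by its gene symbol. The set was chosen by a genotype difference already seen in these data: Slc40a1 was higher in 1 of the sorted populations, the FIPs described next, of transgenic mice. That genotype difference is given as a description, without a test. Gene expression was measured by sequencing polyadenylated RNA of stromal cells sorted from white fat of the gonadal depot in male mice, with 5 libraries in each of 4 groups. The groups were fibro-inflammatory progenitors (FIPs) labelled Mural-Zfp423 transgenic, control FIPs, adipogenic precursor cells (APCs) labelled Mural-Zfp423 transgenic, and control APCs. FIPs were sorted as CD45-CD31-PDGFRb+LY6C+ cells and APCs as CD45-CD31-PDGFRb+LY6C-CD9- cells. All mice, controls included, were fed for 1 month on food that drew 60% of its calories from fat, were kept at thermoneutrality (30 °C), and are given as 8 weeks of age. The line is named for Zfp423, a transcription factor, in mural cells, the cells that wrap small vessels. The sources used here name neither the promoter that drives the transgene nor the strain of the controls. Each library pooled the RNA of 2 mice, and 10 mice were used per genotype, so libraries shared mice. If no mouse entered more than 1 library of the same population, every mouse gave both a FIP and an APC library. The labels do not say which libraries share mice.

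Iron leaves cells through ferroportin, the product of Slc40a1, the only known iron exporter of mammals, and is oxidised by ceruloplasmin (Cp) or hephaestin (Heph) so that transferrin can bind it. Transferrin (Trf) delivers iron through the transferrin receptor (Tfrc) into endosomes, from which the carrier DMT1 (Slc11a2) passes it to the cytosol after reduction by a STEAP protein. ZIP14 (Slc39a14) takes up iron that is not bound to transferrin, and ferritin, made of the heavy chain Fth1 and the light chain Ftl1, stores it as a mineral core. When iron is scarce, the iron regulatory proteins bind a hairpin in some of these mRNAs, the iron-responsive element. Bound in the 5′ UTR it blocks translation, and bound in the 3′ UTR it protects the mRNA from breakdown. The level of an mRNA therefore does not give the amount of its protein in this pathway.

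Hairpins that match a strict form of this element are shown, and other forms were not searched. The letters CNNNNNCAGTGN, with 5 paired bases (G–U pairs allowed) on each side of the loop, were searched on the transcript strand of the UTRs of GENCODE M21 transcripts (GRCm38). The pattern was found at 7 places in 4 of the 10 members. It occurred in the 5′ UTR of 31 of 20916 genes (0.148%) and in the 3′ UTR of 129 of 21045 genes (0.613%). Capitals mark the bulged C and the 6-base loop, and each sequence runs 5′ to 3′.
Fth1, 5′ UTR: gtttcctgCttcaaCAGTGCttgaacggaa
Ftl1, 5′ UTR: gtgtcttgCttcaaCAGTGTttgaacggaa
Slc40a1, 5′ UTR: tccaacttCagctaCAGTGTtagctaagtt
Tfrc, 3′ UTR, site 1: ataattatCggaagCAGTGCcttccataat
Tfrc, 3′ UTR, site 2: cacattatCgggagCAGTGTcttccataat
Tfrc, 3′ UTR, site 3: gtctatatCggagaCAGTGAtctccatatg
Tfrc, 3′ UTR, site 4: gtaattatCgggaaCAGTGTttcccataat
The 5′ site is in 4 of 5 coding transcripts of Fth1, in 1 of 2 of Ftl1 and in 1 of 4 of Slc40a1, and the Tfrc sites are in 1 of 3. A match is a description of these letters, and the table, which has 1 value per gene, cannot separate transcripts with the site from those without it. For the other 6 members the search says no more than that these letters are not in the UTRs searched.

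Values are the deposited log2 CPM, the base-2 logarithm of CPM, a gene's reads scaled to its library's total, in which a CPM of 1 or less is listed as 0. Depth, estimated from the step that 1 read makes among the lowest values, was 6.6 to 8.5 megareads per library. All 10 members were above 0 in all 20 libraries and among the 17435 genes tested, those above 0 in at least 5 libraries. FIPs and APCs separated along the first principal component, which carried 56.7% of the variance. Markers that tell FIPs from APCs were found where the gates put them. Ly6c2 was higher in FIPs than in APCs by 2.45 log2 units and Cd9 by 1.88. All 9 listed FIP markers were higher in FIPs, and Pdgfrb was high in both (8.94 and 9.41 log2 CPM). Transcripts of the 2 proteins that both gates exclude were present in all groups. Pecam1 (CD31) averaged 6.37 log2 CPM in FIPs labelled transgenic, 5.98 in control FIPs, 6.34 in APCs labelled transgenic and 6.61 in control APCs. Ptprc (CD45) averaged 3.66, 4.21, 4.01 and 4.69 in the same 4 groups. Of 7 listed markers of APCs and committed preadipocytes, 6 passed as lower in FIPs and 1 passed as higher (0.73). The level of Zfp423 did not separate the genotypes. It was 5.53 ± 0.04 log2 CPM in FIPs labelled transgenic and 5.47 ± 0.12 in control FIPs, and 4.70 ± 0.27 in APCs labelled transgenic and 4.97 ± 0.17 in control APCs (SD, n = 5 each). The difference between the APC groups was -0.26 (limma, adjusted p = 0.108). Transgenic is therefore used below as the label of a library. Markers of other cells were present in all groups. The summed CPM of 10 erythroid genes was 308 to 561 in FIPs labelled transgenic, 453 to 524 in control FIPs, 456 to 1046 in APCs labelled transgenic and 808 to 1549 in control APCs, although the erythroid genes Epb42 and Klf1 were at 0 in every library. The summed CPM of 21 macrophage genes was 212 to 417, 325 to 606, 260 to 434 and 417 to 699 in the same 4 groups, with none at 0. In such bulk samples, fewer cells of a type and less RNA per cell cannot be told apart.

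**Figure D1:**
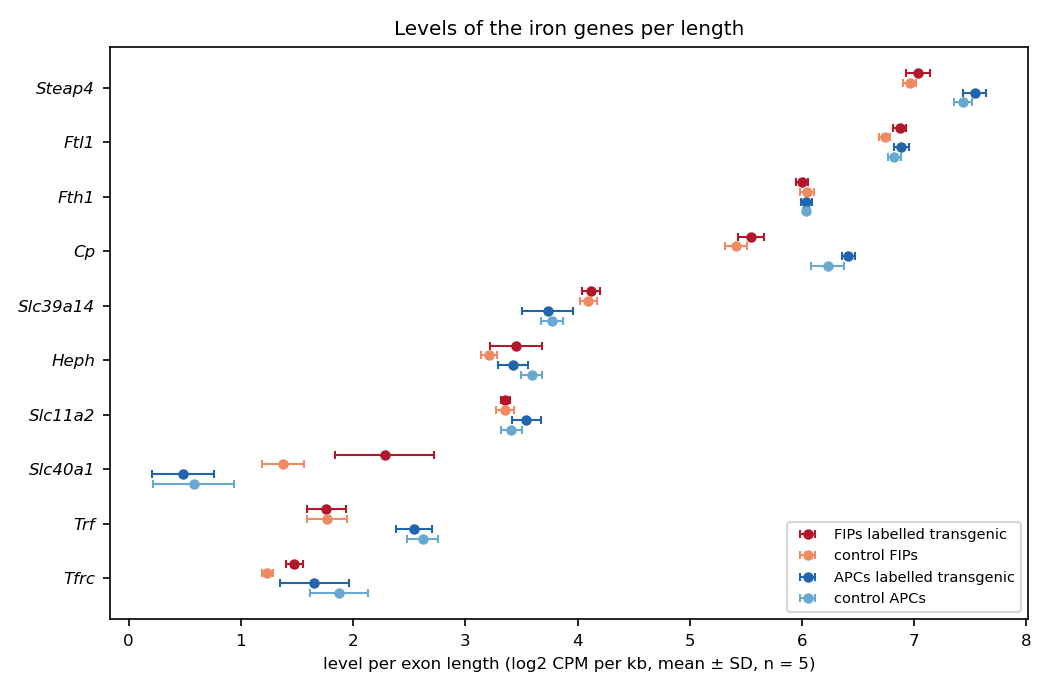
Mean level of each iron gene per kb of exon (log2 CPM per kb, bars SD, n = 5 libraries) in FIPs labelled transgenic, control FIPs, APCs labelled transgenic and control APCs, top to bottom in each row. Steap4 and the ferritin chain Ftl1 lie highest in all 4 groups, and the position of Slc40a1 among the 3 lowest genes differs between groups.

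Per length of exon, so that genes can be set side by side, the set spanned levels from 0.48 to 7.54 log2 CPM per kb. Steap4 was the highest in every group, at 7.04 in FIPs labelled transgenic, 6.96 in control FIPs, 7.54 in APCs labelled transgenic and 7.43 in control APCs. Ftl1 came next (6.74 to 6.88 over the 4 groups). Fth1 stood at 6.0 to 6.04, above Cp in FIPs (5.55 and 5.41 in those labelled transgenic and in controls) and below Cp in APCs (6.41 and 6.23). Slc39a14 (3.73 to 4.12), Heph (3.21 to 3.59) and Slc11a2 (3.35 to 3.54) held the middle, where the means of Heph and Slc11a2 were within 1 SD of Heph in FIPs labelled transgenic. Slc40a1, Trf and Tfrc were the lowest in all groups, but in different orders. Slc40a1 was the highest of these 3 in FIPs labelled transgenic (2.28), between Trf and Tfrc in control FIPs (1.38) and the lowest in both APC groups (0.48 in those labelled transgenic and 0.58 in controls).

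FIPs and APCs were compared as the average over both genotypes. With equal spread in both FIP groups, this average is independent of the genotype difference from which the set was chosen. The spread of Slc40a1 was not equal (SD 0.44 log2 CPM in FIPs labelled transgenic, 0.19 in control FIPs). Its p-value in this contrast therefore does not fully allow for that choice. Of the 10 members, 2 passed as higher in FIPs, 6 passed as lower and 2 passed in neither direction (limma, adjusted p under 0.05 after Benjamini-Hochberg adjustment over all genes tested). The exporter Slc40a1 was higher in FIPs, whereas the oxidase Cp, the carrier Trf and the reductase Steap4 were lower, and these 3 did not overlap between the populations (15.9% of all genes did not, 5.98% as lower in FIPs). Most genes differ between these populations: 58.5% of all genes tested passed, 26.1% higher and 32.4% lower, so passing here does not set a member apart. The median difference of the members was -0.15 log2 units, against -0.04 over all genes. Markers of other cell types also passed as lower in FIPs: 13 of 13 mural genes (median -0.78), 10 of 10 adipocyte genes (-0.55), 10 of 11 mesothelial genes (-0.74) and 13 of 16 endothelial genes (-0.34). In the mesothelial and endothelial lists 1 gene each passed as higher (0.37 and 0.79). Pparg and Fabp4 of the adipocyte list and Fabp4 and Cd36 of the endothelial list are also listed as APC markers. The part of other cell types in the members' differences was not tested.

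**Figure D2:**
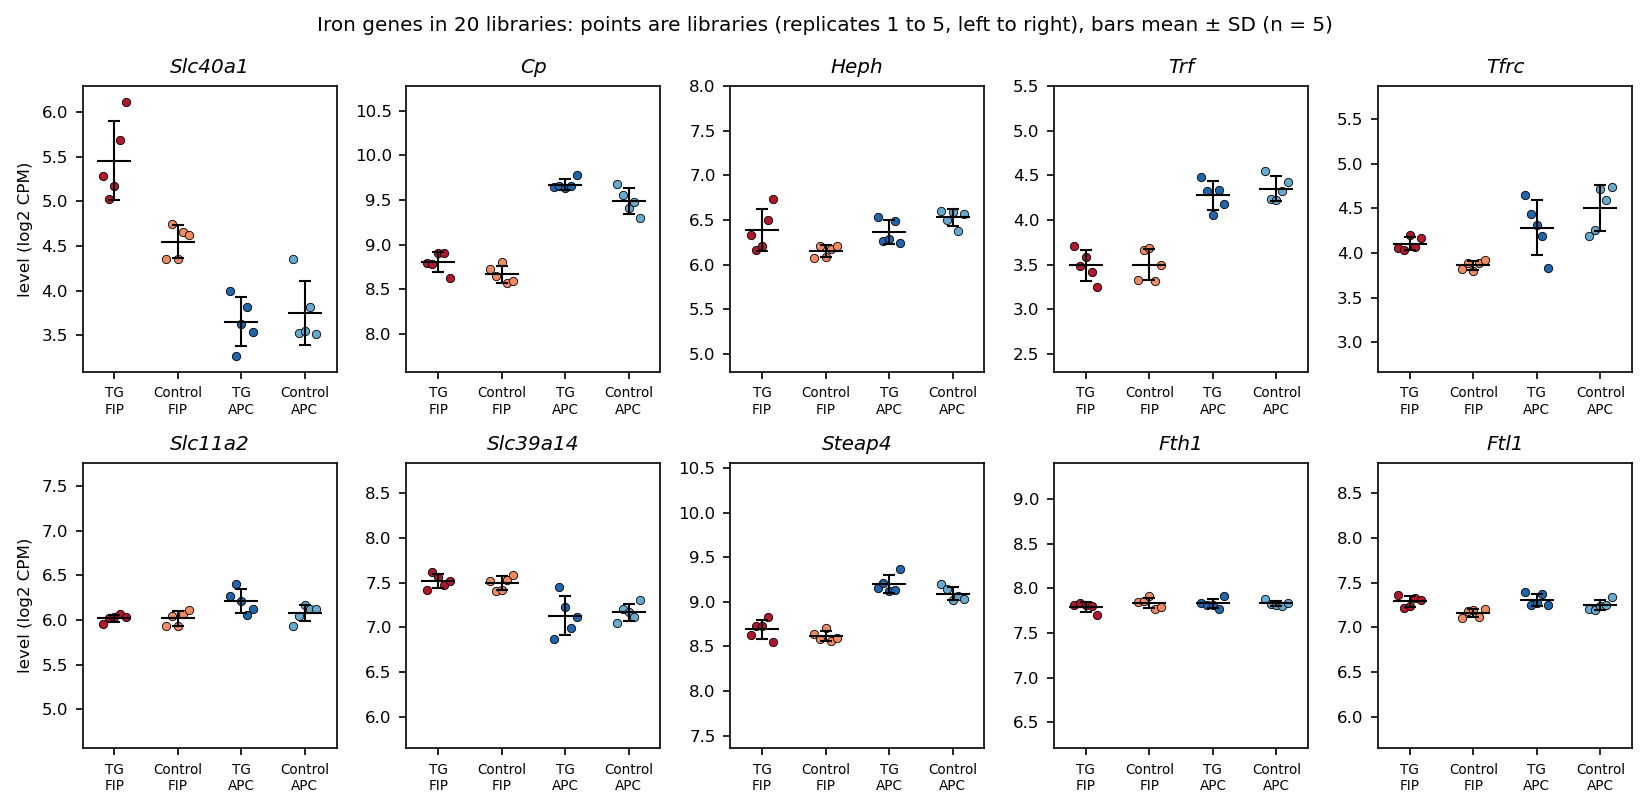
Level of each of the 10 iron genes (log2 CPM) in every library, by group; points are libraries, and bars give the mean and SD (n = 5). The vertical axes start at different values and span the same range. Cp, Trf and Steap4 are lower in every FIP library than in any APC library, and Slc40a1 is highest in FIPs labelled transgenic.

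Slc40a1 (GRCm38 chr1:45908068-45926523, minus strand) stood at 5.28, 5.02, 5.17, 5.68 and 6.11 log2 CPM in replicates 1 to 5 of the FIPs labelled transgenic and at 4.35, 4.75, 4.35, 4.66 and 4.62 in control FIPs. In APCs it was at 4.0, 3.27, 3.63, 3.82 and 3.54 in those labelled transgenic and at 4.35, 3.52, 3.55, 3.82 and 3.51 in controls. All FIP libraries were at or above the highest APC library, replicate 1 of the controls, which tied with 2 control FIP libraries. Averaged over genotypes, the exporter stood at 5.0 log2 CPM in FIPs, against 3.70 in APCs, so it was higher by 1.30 (SE 0.13, limma, adjusted p = 4.92e-08) or 2.46-fold (95% interval 2.03 to 2.98). The FIP mean includes the libraries whose high values chose the set, and the p-value does not fully allow for that choice. With the mean of the erythroid markers as a covariate the difference was 1.14, and with that of the macrophage markers it was 1.17. Macrophages are known for high ferroportin. In the same comparison 20 of 21 macrophage markers had a lower mean in FIPs (median -0.24, against -0.04 over all genes), of which 5 passed. None passed as higher. The part of macrophages in the Slc40a1 difference was not tested. Taken singly, the difference was 1.80 in the genotype labelled transgenic and 0.80 in controls, and these are given without a test.

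The oxidase Cp (chr3:19957054-20009145, plus strand) was at 8.79, 8.78, 8.91, 8.91 and 8.63 log2 CPM in FIPs labelled transgenic and at 8.73, 8.65, 8.80, 8.57 and 8.59 in control FIPs. In APCs it was at 9.64, 9.66, 9.63, 9.65 and 9.78 in those labelled transgenic and at 9.68, 9.56, 9.41, 9.48 and 9.30 in controls. Every FIP library was below every APC library. Cp averaged 8.74 log2 CPM in FIPs, against 9.58 in APCs. The difference was -0.84 (SE 0.05, limma, adjusted p = 1.59e-12), and it was -0.87 in the genotype labelled transgenic and -0.82 in controls (adjusted p = 6.32e-10 and 1.8e-09). Hephaestin, its membrane-bound relative (chrX:96455359-96574485, plus strand), was at 6.33, 6.16, 6.21, 6.50 and 6.73 in FIPs labelled transgenic, at 6.07, 6.21, 6.08, 6.18 and 6.21 in control FIPs, at 6.53, 6.27, 6.29, 6.49 and 6.24 in APCs labelled transgenic and at 6.60, 6.50, 6.59, 6.38 and 6.57 in control APCs. In controls every FIP library lay below every APC library, whereas the libraries labelled transgenic overlapped throughout. The average difference of Heph was -0.18 (SE 0.06, limma, adjusted p = 0.0154). It was 0.02 in the genotype labelled transgenic (adjusted p = 0.862) and -0.38 in controls (adjusted p = 0.00111), and whether these differ was not tested. With the erythroid markers as a covariate the average difference was -0.24 and no longer passed (adjusted p = 0.073).

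Transferrin, the plasma iron carrier (Trf, chr9:103204001-103230444, minus strand), was at 3.71, 3.49, 3.59, 3.42 and 3.25 log2 CPM in FIPs labelled transgenic, at 3.33, 3.66, 3.69, 3.32 and 3.50 in control FIPs, at 4.48, 4.32, 4.06, 4.34 and 4.18 in APCs labelled transgenic and at 4.55, 4.23, 4.22, 4.33 and 4.43 in control APCs. The populations did not overlap. Trf was lower in FIPs, with an average difference of -0.82 log2 units (SE 0.07, limma, adjusted p = 6.44e-09), which was -0.78 in the genotype labelled transgenic and -0.85 in controls (adjusted p = 3.28e-06 and 1.2e-06). Trf shares 2108 exon bases with the predicted gene Gm20425 on the same strand, which is listed at 0 in every library, so how reads of both were assigned bears on the level of Trf.

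The receptor Tfrc (chr16:32608920-32632794, plus strand) was at 4.06, 4.03, 4.20, 4.07 and 4.17 log2 CPM in FIPs labelled transgenic and at 3.82, 3.89, 3.80, 3.89 and 3.92 in control FIPs. In APCs it was at 4.65, 4.44, 4.31, 4.19 and 3.83 in those labelled transgenic and at 4.19, 4.26, 4.72, 4.59 and 4.74 in controls. FIP libraries lay close together, APC libraries were spread over a wider range, and the populations overlapped through replicates 4 and 5 of the APCs labelled transgenic and replicate 1 of the control APCs. The average difference was -0.41 (SE 0.09, limma, adjusted p = 0.000484). It was -0.18 in the genotype labelled transgenic (adjusted p = 0.267) and -0.64 in controls (adjusted p = 0.000291). Erythroid cells are known for high Tfrc, and the mean level of the 7 tested erythroid markers was 3.91 to 4.67 log2 CPM in FIPs labelled transgenic, 4.50 to 4.63 in control FIPs, 4.41 to 5.66 in APCs labelled transgenic and 5.28 to 6.23 in control APCs. With that mean as a covariate, the Tfrc difference was -0.06 on average (adjusted p = 0.742) and -0.15 in controls (adjusted p = 0.567), so neither call remained. In controls none of the 7 markers overlapped between FIPs and APCs, so this covariate closely follows the population there. Over all genes, 6463 passed on average with it, against 10192 without it. Among APCs labelled transgenic, replicate 1 was the highest and replicate 5 the lowest both in Tfrc and in the erythroid mean. Among control APCs replicate 1 was the lowest in both, but Tfrc was highest in replicate 5 and the erythroid mean in replicate 4. Between the FIP groups all 7 markers were lower in those labelled transgenic (median -0.23), where Tfrc was higher by 0.24. The part of erythroid RNA in the Tfrc difference was not tested.

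The endosomal importer Slc11a2 (chr15:100387898-100425072, minus strand) varied little, from 5.96 to 6.07 log2 CPM in FIPs labelled transgenic, 5.93 to 6.11 in control FIPs, 6.06 to 6.40 in APCs labelled transgenic and 5.93 to 6.17 in control APCs. Its average difference of -0.12 (SE 0.04) passed (limma, adjusted p = 0.0126), but not with the erythroid markers (-0.06, adjusted p = 0.504) or the macrophage markers (-0.10, adjusted p = 0.0583) as a covariate. FIP and APC libraries overlapped in both genotypes. ZIP14 (Slc39a14, chr14:70303469-70351425, minus strand) was the other member higher in FIPs. It was at 7.42, 7.62, 7.56, 7.47 and 7.52 in FIPs labelled transgenic, at 7.52, 7.41, 7.42, 7.53 and 7.59 in control FIPs, at 6.87, 7.45, 7.23, 6.99 and 7.12 in APCs labelled transgenic and at 7.05, 7.20, 7.17, 7.11 and 7.31 in control APCs. Only replicate 2 of the APCs labelled transgenic reached into the range of the FIPs. The difference was 0.36 on average (SE 0.05, limma, adjusted p = 1.21e-05), 0.39 in the genotype labelled transgenic (adjusted p = 0.000375) and 0.33 in controls (adjusted p = 0.00175). With the erythroid markers as a covariate it passed on average (0.27, adjusted p = 0.0237) but not in controls (0.21, adjusted p = 0.27).

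Steap4, a reductase of iron and copper that is abundant in fat tissue (chr5:7960457-7982213, plus strand), was at 8.63, 8.73, 8.73, 8.83 and 8.55 log2 CPM in FIPs labelled transgenic, at 8.64, 8.58, 8.71, 8.56 and 8.60 in control FIPs, at 9.16, 9.21, 9.12, 9.13 and 9.37 in APCs labelled transgenic and at 9.20, 9.14, 9.02, 9.07 and 9.03 in control APCs. No FIP library reached an APC library. The difference was -0.49 (SE 0.04, limma, adjusted p = 5.49e-10), or 0.713-fold, and stood at similar values in the genotype labelled transgenic (-0.50, adjusted p = 1.38e-07) and in controls (-0.47, adjusted p = 3.76e-07).

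The ferritin chains were the steadiest members. Fth1 (chr19:9980598-9985098, plus strand) lay between 7.70 and 7.84 log2 CPM in FIPs labelled transgenic, 7.77 and 7.92 in control FIPs, 7.77 and 7.91 in APCs labelled transgenic and 7.80 and 7.88 in control APCs. Its average difference was -0.02 with a 95% interval of -0.07 to 0.03 (limma, adjusted p = 0.539). Ftl1 (chr7:45457944-45459884, minus strand) lay between 7.22 and 7.36, 7.10 and 7.21, 7.25 and 7.39, and 7.19 and 7.34 log2 CPM in the same 4 groups, with a difference of -0.05 and an interval of -0.11 to 0.01 (adjusted p = 0.123). Under quantile normalization it passed at -0.07 (adjusted p = 0.045). Ferritin genes have many near-identical copies that can take part of their reads. Of 14 named copies in the table, Ftl2-ps and Ftl1-ps1 were above 0 in all 20 libraries, at up to 6.56 and 6.30 log2 CPM, and the other 12 were at 0. How reads with several matches were counted is not known. The levels of the copies therefore do not bound the uncertainty in Ftl1 or Fth1.

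**Figure D3:**
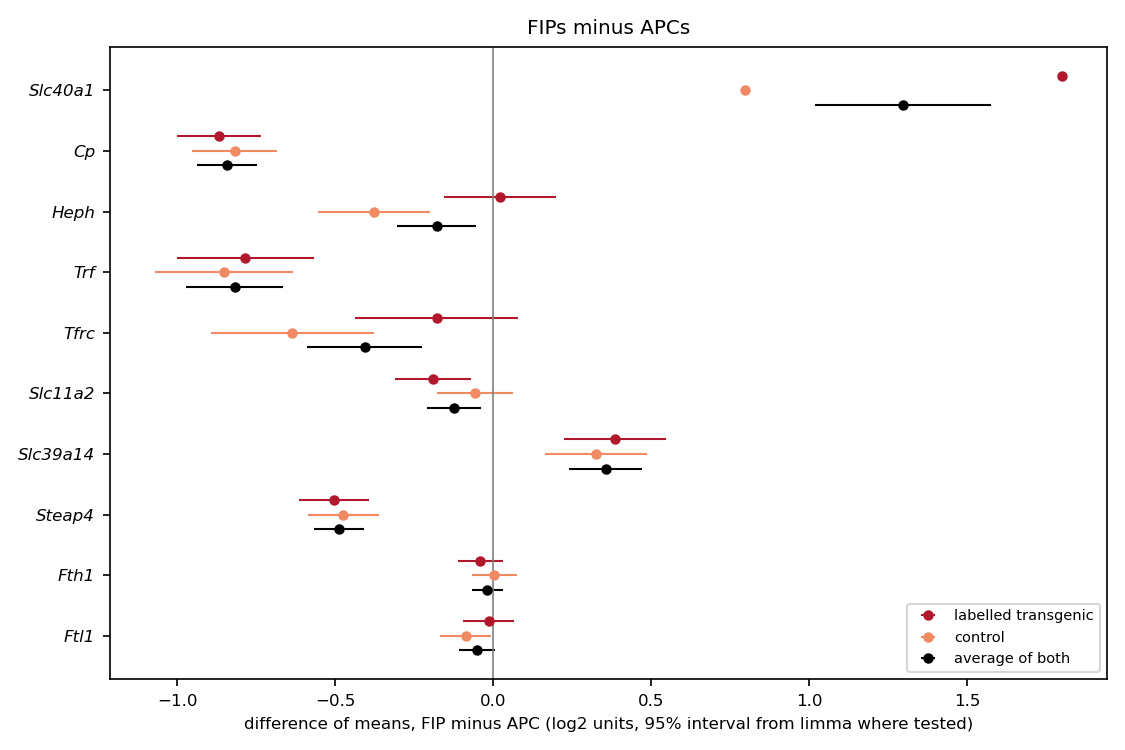
Difference between FIPs and APCs (FIP minus APC, log2 units) for each iron gene in the genotype labelled transgenic, in controls and as the average of both; lines are 95% intervals from limma where a test was made. Slc40a1 and Slc39a14 lie right of 0, Cp, Trf and Steap4 left of it in both genotypes, and the ferritin chains near 0.

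Within the genotype labelled transgenic, 1 of the 9 members tested (all but Slc40a1) was higher in FIPs and 4 were lower, beside 41.7% of all genes that passed (22.7% higher and 19% lower). In controls 1 was higher and 5 were lower, beside 47.5% of all genes (19.6% higher and 27.9% lower). Slc39a14, Cp, Trf and Steap4 passed in both. Slc11a2 passed only in the genotype labelled transgenic (-0.19, limma, adjusted p = 0.0108, against -0.06 and 0.429 in controls), though not with the erythroid mean as a covariate (-0.15, adjusted p = 0.0696). Heph and Tfrc passed in controls and not in the genotype labelled transgenic, where leaving out 1 library moved the Tfrc difference between -0.09 (without replicate 1 of the APCs) and -0.29 (without replicate 5 of the APCs, adjusted p = 0.0406). A difference between the genotypes in these contrasts was not tested, because it contains the contrast that chose the set.

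**Figure D4:**
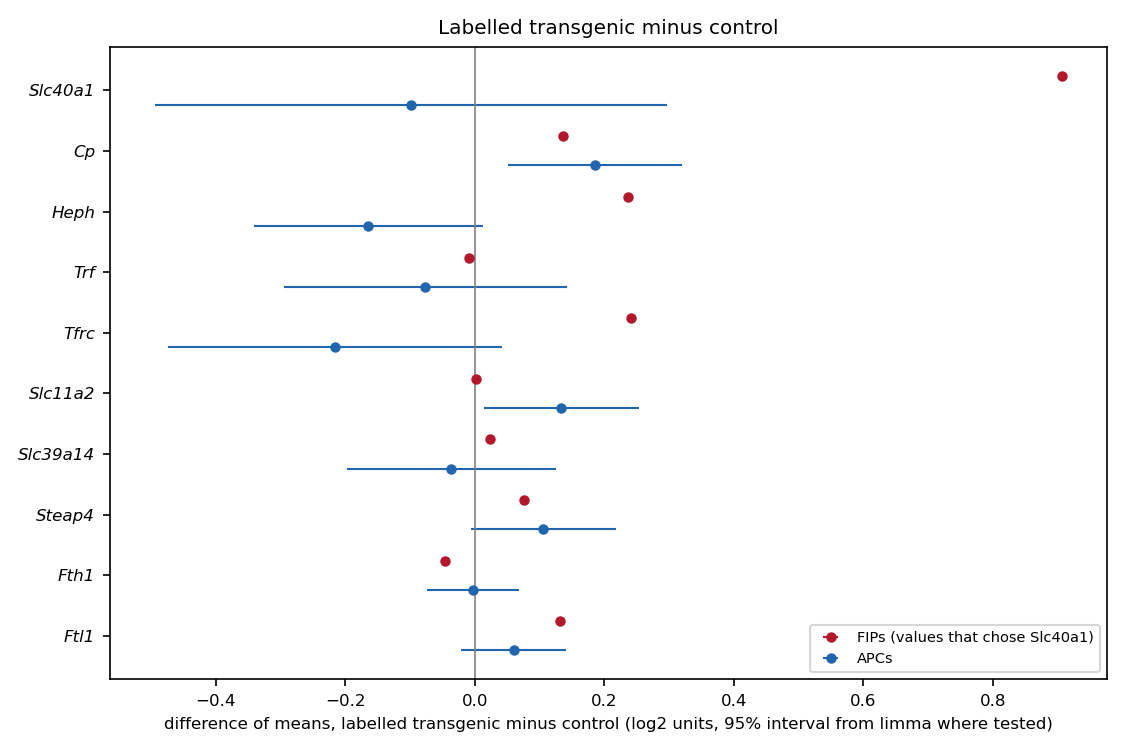
Genotype difference (labelled transgenic minus control, log2 units) of each iron gene in FIPs and in APCs; lines are 95% intervals from limma, drawn for APCs only because the FIP values chose the set. Slc40a1 in FIPs stands at 0.91, and all APC values lie between -0.22 and 0.19.

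In APCs, none of the 10 members passed between the genotypes (limma), beside 8.01% of all genes tested (2.1% higher and 5.91% lower), and the libraries of all 10 overlapped between genotypes (2.92% of all genes did not). At an unadjusted p under 0.05 there were 2, Cp and Slc11a2, beside 25.5% of all genes. Slc40a1 averaged 3.65 ± 0.28 log2 CPM in APCs labelled transgenic and 3.75 ± 0.36 in control APCs (SD, n = 5 each), a difference of -0.10 with a 95% interval of -0.49 to 0.30 (limma, adjusted p = 0.809). As a fold, that interval runs from 0.710 to 1.23. With the erythroid mean as a covariate the difference was -0.27 (adjusted p = 0.923), and with the macrophage mean it was -0.42 (adjusted p = 0.571). Without replicate 1 of the control APCs it was 0.05. Cp averaged 9.67 ± 0.06 in APCs labelled transgenic and 9.49 ± 0.14 in control APCs, a difference of 0.19 (limma, adjusted p = 0.074). It passed without replicate 1 of the control APCs (0.23), with array weights (0.19) and with libraries centred on their medians (0.28). With the erythroid mean as a covariate it was 0.09 (adjusted p = 0.921), and with the macrophage mean 0.15 (adjusted p = 0.603). Slc11a2 differed by 0.13 (adjusted p = 0.145), Tfrc by -0.22 (0.287), Heph by -0.16 (0.234) and Steap4 by 0.11 (0.219). Trf differed by -0.08, Slc39a14 by -0.04, Fth1 by 0.00 and Ftl1 by 0.06, with adjusted p between 0.352 and 0.986. All 7 tested erythroid markers (median -0.95) and 13 of 21 macrophage markers (median of the list -0.77) were lower in APCs labelled transgenic, and the sort markers Cd9 (-0.65), Ly6c1 (-0.53) and Ly6c2 (-0.53) were lower there too.

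In FIPs, the contrast from which the set was chosen, Slc40a1 averaged 5.45 ± 0.44 log2 CPM in libraries labelled transgenic, against 4.55 ± 0.19 in controls (SD, n = 5 each). The difference was 0.91, or 1.87-fold. Every library labelled transgenic was above every control, and leaving out 1 library at a time gave 0.74 to 1.01. The members just below it in size were Tfrc and Heph. Tfrc averaged 4.11 ± 0.07 in libraries labelled transgenic, against 3.86 ± 0.05 in controls, without overlap (0.24). Heph averaged 6.39 ± 0.23 in libraries labelled transgenic, against 6.15 ± 0.07 in controls, with overlap (0.24, or 0.15 without replicate 5 of the libraries labelled transgenic). Ftl1 averaged 7.29 ± 0.06 in libraries labelled transgenic and 7.16 ± 0.05 in controls (0.13), again without overlap. The other 6 members differed by -0.05 to 0.14. So 3 of 10 members did not overlap, all of them higher in the libraries labelled transgenic. Over all genes 2.89% did not overlap (2.19% higher), and 0.373% passed in limma. Nothing is read from these shares, since the values in this contrast chose the set.

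Slc40a1 and Heph were both highest in replicates 4 and 5 of the FIPs labelled transgenic. These were also the libraries with the lowest erythroid marker means (3.91 and 3.93 log2 CPM, against 4.45 to 4.67 in replicates 1 to 3 and 4.50 to 4.63 in control FIPs) and the lowest macrophage marker means (3.09 and 2.78, against 3.54 to 3.72 in replicates 1 to 3 and 3.34 to 4.14 in control FIPs). With the erythroid mean as a covariate the Slc40a1 difference was 0.86, and with the macrophage mean it was 0.71. The Tfrc difference was 0.35 and 0.37 under the same 2 covariates. Macrophage markers were below the controls in 19 of 21 genes (median -0.51) and endothelial markers above them in 12 of 16 (median 0.32). Over all genes 54.6% were above the controls (median 0.01). No macrophage marker and 1 endothelial marker did not overlap between the FIP groups, beside 2.89% of all genes. The part of these cells in the members' differences was not tested. Both comparisons of FIPs with APCs share the FIP libraries with this contrast.

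The genes whose profile over the 20 libraries was most like that of Slc40a1 were sought among 11785 genes with a mean of at least 2 log2 CPM, by the root mean square distance after each gene was centred on its own mean. That distance was 0.25 log2 units for Trib3, a pseudokinase of the stress response, 0.32 for Slc27a6, a fatty acid transport protein, 0.32 for Lama1, a laminin chain, 0.33 for Igfbp3, which binds insulin-like growth factors, and 0.35 for Gli1, a transcription factor of the hedgehog pathway. The median gene was at 0.80, and a gene without any change over the libraries would be at 0.78. Trib3 averaged 4.37, 3.64, 2.59 and 2.70 log2 CPM in FIPs labelled transgenic, control FIPs, APCs labelled transgenic and control APCs, and Igfbp3 averaged 7.20, 6.02, 4.76 and 4.87. Trib3, Slc27a6, Lama1 and Igfbp3, like Slc40a1, had their highest value in replicate 5 of the FIPs labelled transgenic, and Gli1 had it in replicate 4. The genes were picked by likeness over these same libraries, so nothing is read from a shared peak.

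A wider list of 58 iron and heme genes, 53 of them tested, was divided by role. Averaged over genotypes, 12 were higher and 22 lower in FIPs than in APCs and 19 did not pass, with a median difference of -0.12. Over all genes tested 58.5% passed (26.1% higher and 32.4% lower) with a median of -0.04, so neither this count nor those by role that follow set the list apart. Of the 9 tested genes of iron sensing and the hepcidin axis, 3 were higher and 4 lower. The largest difference of the list was that of Bmp6, the growth factor that drives hepcidin expression in the liver. It was 7.22 to 7.59 log2 CPM in FIPs labelled transgenic, 7.50 to 7.56 in control FIPs, 5.05 to 5.45 in APCs labelled transgenic and 5.07 to 5.57 in control APCs, so that no FIP library came near an APC library. The difference was 2.12 (SE 0.06, limma, adjusted p = 7.69e-17), or 4.35-fold. Neo1, a co-receptor in the same axis, was higher by 0.58 (adjusted p = 1.34e-08), and Hfe, which binds the transferrin receptor, was lower at -0.44 (adjusted p = 3.04e-08). The genes of the iron regulatory proteins, which bind the hairpins printed above, were looked up after their values were seen. Aco1 was lower in FIPs (-0.30, adjusted p = 5.81e-07) and Ireb2 higher by 0.07 (adjusted p = 0.0155).

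**Figure D5:**
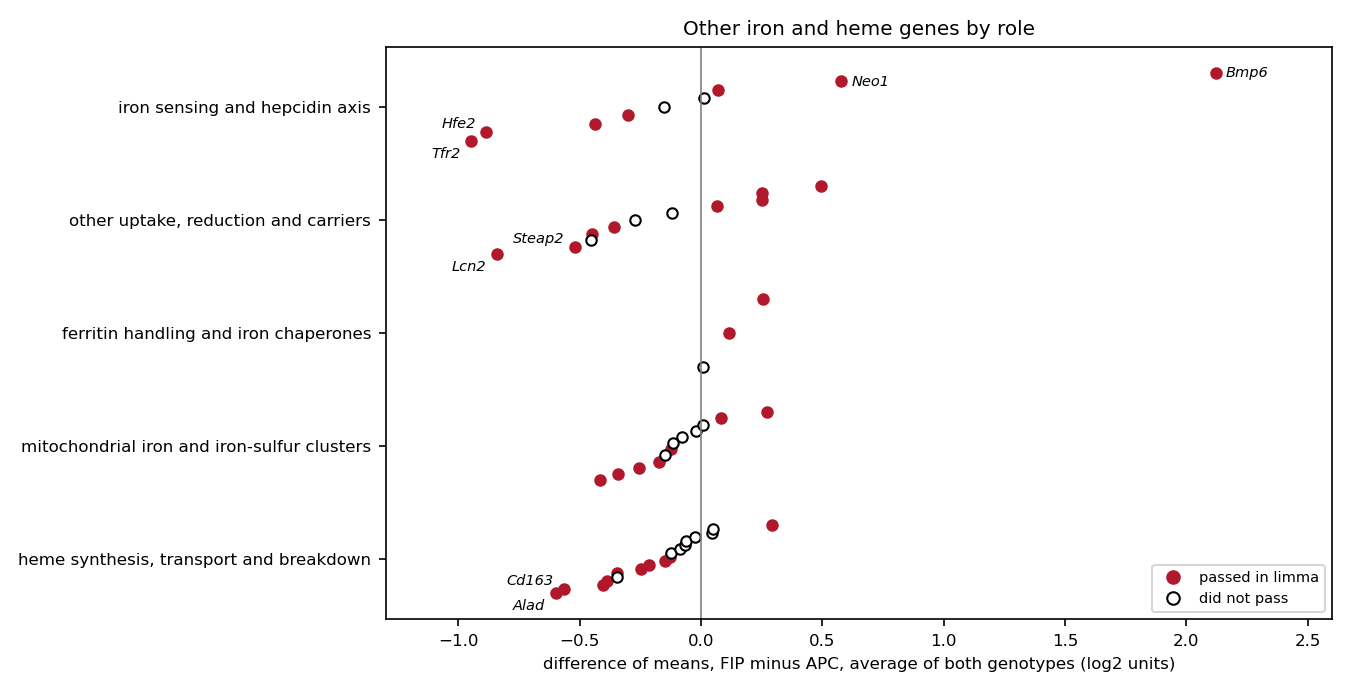
Difference between FIPs and APCs (FIP minus APC, average of both genotypes, log2 units) of 53 other iron and heme genes by role; filled points passed in limma and open points did not, and genes beyond 0.5 log2 units in size are named. Bmp6 stands at 2.12, and most heme genes lie left of 0.

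Among 11 tested genes of other uptake, reduction and carriage, 4 were higher and 4 lower. Steap3, the endosomal reductase of erythroid cells, was higher by 0.25 (limma, adjusted p = 2.39e-07), and Slc22a17, a receptor of the siderophore-binding protein Lcn2, was lower at -0.36 (adjusted p = 4.83e-07). Of the 3 tested genes of ferritin handling, 2 were higher and none lower. Of 12 mitochondrial genes, 2 were higher and 5 lower. Of the 18 heme genes, 1 was higher and 9 were lower, and the one that was higher was Blvrb, a biliverdin reductase (0.29, adjusted p = 5.18e-06). Lower heme genes without overlap were Hp, which encodes the haemoglobin-binding haptoglobin (-0.40, adjusted p = 2.5e-06), and the heme carrier Slc48a1 (-0.35, adjusted p = 1.29e-08). All 7 tested erythroid markers were lower in FIPs as well (median -0.90). With the erythroid mean as a covariate 20 of the 53 genes passed, 8 higher and 12 lower. Over all genes 6463 of 17435 passed in that fit (3652 higher and 2811 lower), so this count does not set the list apart.

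In the genotype labelled transgenic 10 of the 53 genes were higher in FIPs than in APCs and 12 lower (median -0.05), and in controls 9 were higher and 21 lower (median -0.18). The shares over all genes were 41.7% (22.7% higher and 19% lower) in the genotype labelled transgenic and 47.5% (19.6% higher and 27.9% lower) in controls. Among the passing genes without overlap, those with the largest differences that were not named above included, in the genotype labelled transgenic, the mitochondrial iron importer Slc25a37 (0.34, limma, adjusted p = 0.00156), Alad of heme synthesis (-0.54, adjusted p = 0.000676) and the metal reductase Steap2 (-0.49, adjusted p = 0.00012). In controls they included Alad (-0.66, adjusted p = 8.68e-05), Lcn2 (-1.04, adjusted p = 3.25e-05), Hfe2, which encodes hemojuvelin (-1.62, adjusted p = 0.000549), and Tfr2, the second transferrin receptor (-1.38, adjusted p = 3.18e-05). Hfe2 and Tfr2 were near the floor of the table, with values of 0 to 0.83 log2 CPM in control FIPs.

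Between genotypes in APCs, 1 of the 53 genes was higher and 4 were lower, beside 8.01% of all genes (2.1% higher and 5.91% lower), so the count does not set the list apart. Hmox1, the enzyme that frees iron from heme, was at 7.50, 7.30, 7.08, 7.0 and 6.98 log2 CPM in APCs labelled transgenic and at 6.94, 6.78, 6.69, 6.62 and 6.43 in control APCs. The groups did not overlap, although the lowest library labelled transgenic was only slightly above the highest control. The difference was 0.48 (SE 0.10, limma, adjusted p = 0.0161). In FIPs Hmox1 was at 7.08, 6.58, 6.59, 6.72 and 6.70 in libraries labelled transgenic and at 6.43, 6.39, 6.36, 6.30 and 6.29 in controls, again without overlap and given as a description. The lower genes were Cybrd1, a ferric reductase (-0.81, adjusted p = 0.0415), Hfe2 (-1.14, adjusted p = 0.0446), Tfr2 (-0.84, adjusted p = 0.0299) and Cd163, the macrophage receptor for haemoglobin bound to haptoglobin (-1.01, adjusted p = 0.0284). Of these, the last 3 were named after their values were seen. Cybrd1, Hfe2 and Tfr2 were below 3 log2 CPM in every library of this comparison. The count was 0 without replicate 5 of the control APCs and 11 without replicate 1 of those labelled transgenic, and it moved by over 1.5 times without any of the 10 APC libraries but replicate 2 of the controls. No gene of the list passed with the erythroid or the macrophage mean as a covariate.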

How the data were processed

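RNA of 20 libraries (5 per group, 2 mice each) was sequenced. Per the submitters' processing notes, reads were processed with Trim Galore 0.4.1, HISAT2 2.0.1, featureCounts 1.4.6 and DESeq2 1.6.3 on GRCm38. The annotation release, the strand setting and how reads with several matches were counted were not given in the labels or notes. The authors deposited log2 CPM to 2 decimals, with 0 for a CPM of 1 or less, so differences of low genes are understated. Depth was estimated from the lowest values. Within 0.0051 log2 units, 75.3 to 80.0% of these were whole reads, which falls short of nearly all, so no count model was used. Arithmetic was done in R 4.3.3 with limma 3.58.1: 1 mean per group over all 20 libraries, 16 residual degrees of freedom, a variance trend, genes above 0 in at least 5 libraries, and Benjamini-Hochberg adjustment over all 17435 at 0.05. Libraries were taken as independent although pools share mice, and p-values measure the spread between pools. Members are described by counts and medians only. Of the wider list, passing genes without overlap were named, up to 4 per direction with the largest differences in each comparison. Members, lists and comparisons were chosen with earlier results of these data known. Alternatives were another pseudocount, filters, centring, quantile normalization, only the groups compared, a replicate block, array weights, marker means as covariates, and each library left out. The counts over the wider list under these were added after seeing the data. Some results on a marker gene are not reported here. The procedure was tested on simulated data. Coordinates, exon lengths and UTRs are those of GENCODE M21.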

Additional observations from a re-analysis of the deposited data

Results flagged for a closer look

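In 2 of 40 groups of 5 libraries (10 genes in 4 groups), 1 library stood apart from the other 4 by Dixon's criterion, which chance meets in about 1 of 20 groups. Cp was at 9.78 log2 CPM in replicate 5 of the APCs labelled transgenic, against 9.63 to 9.66 in the other 4. Fth1 was at 7.70 log2 CPM in replicate 5 of the FIPs labelled transgenic, against 7.80 to 7.84 in the other 4.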

How the results depend on the processing

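The calls of Cp, Trf and Steap4 between FIPs and APCs kept their direction and passed under every alternative run. So did that of Slc40a1 averaged over genotypes. Those fits reuse the FIP values that chose the set, so they add no support to its call. Depth was similar in all groups. It and the floor at 1 CPM limit the low genes of the wider list, such as Cybrd1, Hfe2, Tfr2 and Hephl1. With the erythroid mean as a covariate, the count of genes that passed was 6463 on average (10192 without it), with 5 members and 20 wider iron genes, and 3992 in controls (8288 without it), with 12 wider iron genes; it was 3 between genotypes in APCs (1396 without it) and 108 in FIPs (65 without it). With the macrophage mean these were 15 in APCs and 113 in FIPs. Between genotypes in APCs, 812 genes passed without a filter on low values, 2199 with centred libraries and 2253 with array weights, and none with only the groups compared, where 3602 had an unadjusted p under 0.05 in limma; in FIPs 36 passed with only the groups compared and 271 with array weights. Of the members, 3 passed in APCs with centred libraries (Cp, Slc11a2 and Ftl1) and 1 with array weights (Cp). Of the wider iron genes, 5 passed in APCs, against 2 with a pseudocount of 1, 3 without a filter, 10 with centred libraries, 2 with quantile normalization, 9 with array weights, 0 with either covariate and 0 with only the groups compared, where 14 had an unadjusted p under 0.05 in limma. Centred libraries moved the share of higher calls from 54.5 to 43.8% (genotype labelled transgenic) and from 41.3 to 52.8% (controls) for FIPs against APCs, from 26.2 to 62.6% between genotypes in APCs (46.3% with quantile normalization), and from 64.6 to 51.9% in FIPs (53.6% with quantile normalization). The cause of these shifts was not tested.

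Leaving out 1 library at a time gave 181 genes (without replicate 5 of the control APCs) to 2849 (without replicate 1 of those labelled transgenic) between genotypes in APCs, with 0 to 1 members and 0 to 11 wider iron genes; the count moved by over 1.5 times without any of the 10 libraries but replicate 2 of the control APCs. In FIPs it gave 9 genes (without replicate 4 of those labelled transgenic) to 125 (without replicate 5), and the count moved that far without any library but replicate 2 of those labelled transgenic and replicate 1 of the controls. Between FIPs and APCs no member lost its call when 1 library was left out.

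Differences that changed sign had not passed. FIPs against APCs, with the erythroid mean as a covariate Ftl1 was 0.00497 on average, Heph -0.0154, Tfrc 0.0344 and Ftl1 0.0195 in the genotype labelled transgenic, and Slc11a2 0.0249 and Fth1 -0.00265 in controls. Heph in the genotype labelled transgenic was -0.03 with centred libraries, -0.00405 with quantile normalization and -0.00414 with array weights, and in controls Slc11a2 was 0.006 when centred and Fth1 -0.0331 under quantile normalization. Between genotypes in APCs, Trf was 0.018 centred, 0.0291 under quantile normalization, 0.063 with the erythroid mean and 0.0701 with the macrophage mean. Slc39a14 was 0.058 centred and 0.0144 with array weights, Fth1 was 0.092 centred, 8.17e-05 with array weights and 0.0111 with the macrophage mean, Slc40a1 was 0.0494 under quantile normalization, and Tfrc was 0.162 with the erythroid mean. With 1 library left out, values ran from -0.064 to 0.0785 for Heph and -0.031 to 0.007 for Ftl1 (genotype labelled transgenic), -0.0165 to 0.021 for Fth1 (controls), and, between genotypes in APCs, from -0.185 to 0.052 for Slc40a1, -0.1155 to 0.0295 for Slc39a14 and -0.0215 to 0.0135 for Fth1.

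Same-numbered libraries deviated from their group means with r of 0.06 to 0.33 between FIPs and APCs labelled transgenic and 0.04 to 0.27 between those of controls. Of 5 libraries each, 2 and 3 correlated best with their own number. Between genotypes, where libraries cannot share mice, r was -0.01 to 0.11 in FIPs and -0.32 to 0.15 in APCs, with 1 and 2 of 5. These values do not settle whether the numbers pair the libraries, and the main fit left them unpaired. With the replicate number as a block, 10599 genes passed between FIPs and APCs on average, 7845 in the genotype labelled transgenic and 8656 in controls, and 1057 between genotypes in APCs and 101 in FIPs. Ftl1 in controls then passed at the same difference of -0.086 (as it did under quantile normalization, at -0.113, and with array weights), and the block changed no other call of a member.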
